A study of Homo sapiens with 15 samples.

Results

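AsPC-1 is a human pancreatic ductal adenocarcinoma cell line, and 6 of the 15 libraries of the series compare a pair of knockdowns in it. In 3 libraries the cells had received an siRNA against B4GALT5 (siB4GALT5), and in 3 an siRNA against B3GNT3 (siB3GNT3). The knockdowns are set against each other directly, and 3 AsPC-1 libraries with a control siRNA (siNC) show on which side of the control each one lies. Capan-1, another pancreatic ductal adenocarcinoma line, was used for 3 siB3GNT3 and 3 siNC libraries, which serve as a second look at the B3GNT3 side. The 6 libraries were chosen by their labels, not by their values. The series asks about MHC class I on tumour cells and CD8 T cells; the values are mRNA levels. The labels give no siRNA sequence, dose or time after transfection, so whether both lines received the same siRNA against B3GNT3 is unknown. Loss of a target and other effects of an siRNA cannot be told apart with these libraries, and this was not tested. The labels are also silent on whether replicates were cultured separately. The p-values thus reflect the spread from library to library, which may be technical.

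B4GALT5 and B3GNT3 are Golgi glycosyltransferases that build different glycans. B4GALT5 adds galactose to glucosylceramide and so makes lactosylceramide, the precursor of most complex glycosphingolipids such as gangliosides. B3GNT3 adds N-acetylglucosamine to core 1 O-glycans of mucin-type proteins, and galactosyltransferases then extend that branch. A gene that differs between the knockdowns is one on which the 2 siRNAs do not have the same net result; a gene that both move alike is absent from this comparison even where both move it far from siNC.

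Expression was given as FPKM, fragment numbers scaled to transcript length and to the mapped fragments of the library, for 25503 genes. FPKM carry no counts, so the depth is unknown; steps between the lowest values put the relative depth of the 9 AsPC-1 libraries between 0.973 and 1.01. Per library 10339 to 10631 AsPC-1 genes reached an FPKM of 1. Of 11 ductal epithelial markers 7 were at 1 FPKM or more in all 9 libraries (among them KRT8, KRT18, KRT19, EPCAM, MUC1 and SOX9), with summed levels of 1970 to 1990 FPKM with siB4GALT5, 1670 to 2080 FPKM with siB3GNT3 and 2050 to 2100 FPKM with siNC. KRT7, CDH1 and CFTR, further markers of that list, did not reach 1 FPKM in all libraries. Of other cell types only CD68 among 10 leukocyte markers and LUM among 11 fibroblast and stellate markers reached 1 FPKM in all 9 libraries, and no endothelial, acinar or endocrine marker did. In bulk RNA fewer cells of a type and less RNA per cell cannot be told apart.

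The targets were checked first, because 1 library goes against its label. B4GALT5 (chromosome 20, 49632945 to 49713878, minus strand, GRCh38) had 8.7, 8.49 and 8.03 FPKM with siB4GALT5, against 34.9, 33.5 and 36.7 FPKM with siB3GNT3 and 38.7, 35.8 and 35.5 FPKM with siNC. The siB4GALT5 libraries were the low ones. B3GNT3 (chromosome 19, 17794828 to 17813082, plus strand, GRCh38) had 32.4, 30.8 and 27.9 FPKM with siB4GALT5, against 2.53 and 2.5 FPKM in siB3GNT3 replicates 1 and 2. It had 24.2 FPKM in the library labelled siB3GNT3 replicate 3, beside 22.5, 23.8 and 23.3 FPKM with siNC. The target was thus at control level in that library.

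The library labelled siB3GNT3 replicate 3 lay with siNC across all genes as well. By the root mean square of log2 differences over genes it was 0.475 to 0.488 away from siB3GNT3 replicates 1 and 2 but only 0.141 to 0.15 away from siNC. The siNC libraries were 0.143 to 0.146 apart among themselves. Counts over all genes are therefore given with all libraries and with the library labelled siB3GNT3 replicate 3 set apart. Single genes and lists are given with it set apart unless all libraries are named, and calls that ended with all libraries are stated. Setting it apart keeps libraries in which the target was low, so the difference for B3GNT3 itself is fixed by that choice and is no test. A milder split lay within the other knockdown: siB4GALT5 replicate 3 was 0.251 and 0.271 from replicates 1 and 2, which were 0.151 from each other. Between knockdowns, siB4GALT5 libraries and siB3GNT3 replicates 1 and 2 were 0.381 to 0.395 apart.

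**Figure D1:**
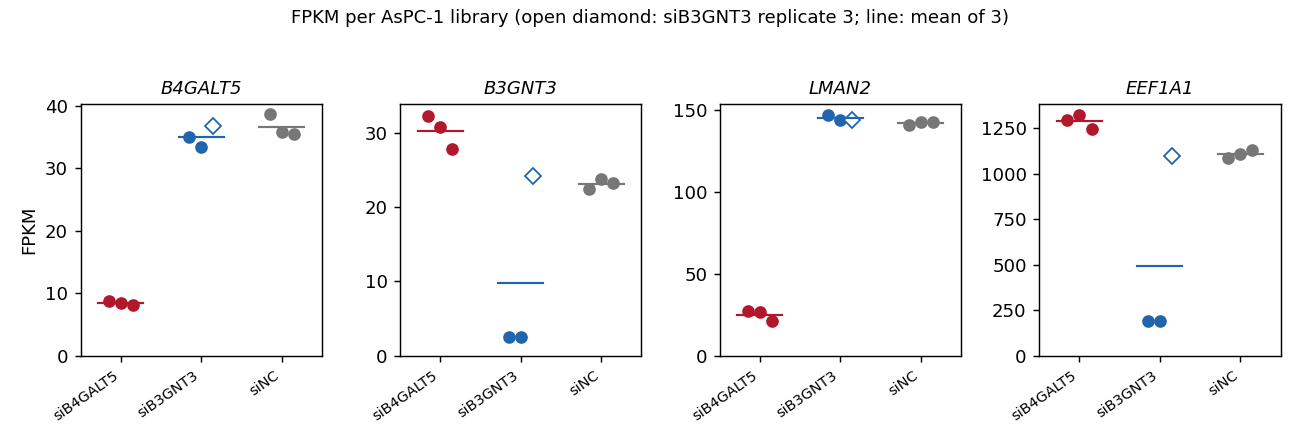
FPKM (y axis, from 0) of both targets and of LMAN2 and EEF1A1 in each AsPC-1 library, with siB4GALT5 left, siB3GNT3 in the middle and siNC right; the line is the mean of 3 libraries. The open diamond, the library labelled siB3GNT3 replicate 3, had 24.2 FPKM of B3GNT3 and 1099 FPKM of EEF1A1 and lies beside siNC in each panel.

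Against each other, the knockdowns differed in 1716 of 10804 genes with all libraries (limma, adjusted p under 0.05), 15.9% of those tested, with 894 higher (8.27%) and 822 lower (7.61%) with siB4GALT5. With the library labelled siB3GNT3 replicate 3 set apart, they differed in 3789 of 10775 genes (35.2%), 1915 higher (17.8%) and 1874 lower (17.4%) with siB4GALT5. All 1716 genes were among the 3789, with the same sign, and make up 45.3% of them. At least 2-fold differences were found in 113 genes with all libraries (1.05% of those tested), 55 higher (0.509%) and 58 lower (0.537%) with siB4GALT5. With that library set apart there were 205 (1.9%), 120 higher (1.11%) and 85 lower (0.789%). The median log2 difference over all genes tested was 0.03 with all libraries and -0.0044 with that library set apart.

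The 2-fold differences were sorted by how far each knockdown lay from siNC. Of the 205 genes 181 averaged 5 FPKM or more with at least one of the siRNAs. In 46 of these siB4GALT5 was the lower and lay at least 2 times as far from siNC as siB3GNT3 did; in 14 siB4GALT5 was the higher by the same rule. In 67 siB3GNT3 was the lower and the farther from siNC, and in 6 it was the higher. Another 47 had their means on opposite sides of siNC, with neither siRNA at least 2 times as far from it as the other. Of these, 43 passed against siNC with both siRNAs (the others were EPDR1, SLK, TAX1BP1 and HIPK2). The last 1, GDF15, was above siNC with both. Genes of the groups of 46, 14, 67 and 6 could also lie on opposite sides of siNC. Both siRNAs passed against siNC, on either side, in 12 of the 46, 6 of the 14, 32 of the 67 and 1 of the 6. The 2-fold line divides a continuum. KCTD2, just inside it, had 12.9, 13.9 and 11.6 FPKM with siB4GALT5, against 6.1 and 5.64 FPKM in siB3GNT3 replicates 1 and 2. The call of KCTD2 ended with all libraries (adjusted p = 0.0854). PTGES, just outside the line, had 21.5, 23.1 and 26.7 FPKM with siB4GALT5, against 11.8 and 10.9 FPKM in those siB3GNT3 replicates. With all libraries the calls held for 46 of 46 and 14 of 14 genes of the siB4GALT5 groups and for 47 of 47 of the opposite-side group. They held for 20 of 67 and 1 of 6 of the siB3GNT3 groups. The library added back lies at siNC, so it shrinks the difference most where siB3GNT3 is the farther from siNC. The lower counts of the siB3GNT3 groups are thus built into the sorting and are no test of those genes. All 181 were called without siB4GALT5 replicate 3. Without siB3GNT3 replicate 1 the calls held for 43 of the 46 and 67 of the 67, and without siB3GNT3 replicate 2 for 43 of the 46 and 66 of the 67; the other groups kept all of theirs.

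**Figure D2:**
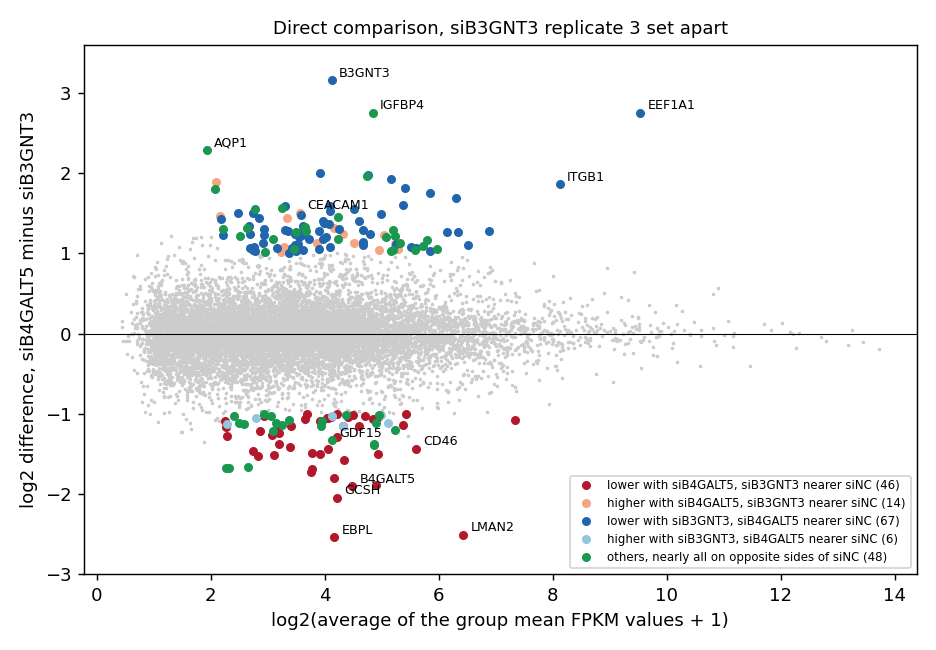
Log2 difference, siB4GALT5 minus siB3GNT3 with the library labelled siB3GNT3 replicate 3 set apart (y axis), against log2 of the average of the group mean FPKM plus 1 (x axis), for 10775 genes. Coloured points are the 181 genes with called differences of at least 2-fold and at least 5 FPKM: 46 lower and 14 higher on the siB4GALT5 side, 67 lower and 6 higher on the siB3GNT3 side, and 48 others, 47 of them on opposite sides of siNC.

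The genes lowered mainly with siB4GALT5 included EBPL, LMAN2 and GCSH. EBPL, a relative of the sterol isomerase EBP (chromosome 13, 49660723 to 49691475, minus strand), had 5.21, 4.4 and 3.36 FPKM with siB4GALT5, against 29.8, 29.4 and 40.6 FPKM with siB3GNT3 and 40.4, 41.2 and 46.2 FPKM with siNC. The siB4GALT5 libraries lay far below all others, siB3GNT3 replicates 1 and 2 somewhat below siNC, and the difference was -2.54 on the log2 scale (SE 0.13, adjusted p = 2.27e-06; -2.69 with all libraries). LMAN2, a lectin that carries glycoproteins from the endoplasmic reticulum towards the Golgi (chromosome 5, 177331562 to 177351852, minus strand), had 27.3, 26.4 and 21.1 FPKM with siB4GALT5, against 147, 144 and 144 FPKM with siB3GNT3 and 141, 143 and 143 FPKM with siNC. Its siB3GNT3 and siNC libraries were alike, and its difference was -2.51 (SE 0.09, adjusted p = 4.34e-07). GCSH, the H protein of the glycine cleavage system, had 6.06, 5.61 and 6.96 FPKM with siB4GALT5, against 30.3, 27.3 and 36.6 FPKM with siB3GNT3 (-2.05, adjusted p = 1.10e-06). All 3 differed by more than B4GALT5 itself, at -1.9 (adjusted p = 2.15e-07).

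On the same side KIAA1191 had a log2 difference of -1.89 and CLRN3, a clarin, of -1.73, both with siB3GNT3 a little above siNC. DPYSL2, a regulator of microtubules, had 5.45, 5.55 and 5.54 FPKM with siB4GALT5, against 18.6, 21.4 and 24.4 FPKM with siB3GNT3 (-1.69, adjusted p = 8.67e-07). CD46, the complement regulator that shields cells from lysis, had 25.2, 24.5 and 25.6 FPKM with siB4GALT5, against 70.8, 68.7 and 60.8 FPKM with siB3GNT3 and 64.3, 63.6 and 65.5 FPKM with siNC (-1.44, adjusted p = 2.59e-07). The calcium-gated potassium channel KCNN4 (-1.5), the purine enzyme GDA (-1.57), the centrosomal protein CETN2 (-1.52) and the aminopeptidase XPNPEP1 (-1.44) were also the lower with siB4GALT5, with siB3GNT3 at siNC for XPNPEP1 and above it for KCNN4 (44.5 and 44.2 FPKM in siB3GNT3 replicates 1 and 2, against 31.1, 33.9 and 33.4 FPKM with siNC).

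Replicate 3 of siB4GALT5 stood apart in some of these genes. AHCY, which clears S-adenosylhomocysteine, had 20.6 and 19.7 FPKM in siB4GALT5 replicates 1 and 2 and 36.6 FPKM in replicate 3, against 55.2, 55.4 and 55 FPKM with siB3GNT3. The mitotic gene HMMR had 14.6, 11.7 and 29.3 FPKM with siB4GALT5, against 38.7, 35.4 and 36.3 FPKM with siB3GNT3. For CIDEC, a lipid droplet protein, replicate 3 was the lowest instead, at 3.66 FPKM beside 8.77 and 9.5 FPKM in siB4GALT5 replicates 1 and 2, against 29, 23.7 and 17.4 FPKM with siB3GNT3. In all 3 genes every siB4GALT5 library was still below every siB3GNT3 library.

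Genes higher mainly with siB4GALT5 were fewer, at 14. The long non-coding RNA LINC01537 led by size, with 6.06, 5.37 and 5.72 FPKM with siB4GALT5, against 1.07, 0.596 and 1.24 FPKM with siB3GNT3 and 1.43, 1.59 and 1.1 FPKM with siNC (1.88, adjusted p = 1.03e-05). CEACAM1, an adhesion protein that inhibits T and NK cells when it binds its partners on them, had 15.7, 15.4 and 18.4 FPKM with siB4GALT5, against 5.16, 5.15 and 6.11 FPKM with siB3GNT3 (1.5, adjusted p = 3.93e-06). Its siB3GNT3 libraries were slightly below siNC, at 6.64, 7.53 and 6.9 FPKM. POMK, the kinase that phosphorylates O-mannose on dystroglycan, differed by 1.46, the palmitoyltransferase ZDHHC18 by 1.44 and the transcription factor FOXD1 by 1.31. ERRFI1, which inhibits the EGF receptor, differed by 1.25, TNIP1, which restrains NF-kB, by 1.23, and ZFP36, which destabilises cytokine mRNAs, by 1.04. For ZDHHC18, FOXD1, ERRFI1, TNIP1 and ZFP36 siB3GNT3 lay within 0.13 of siNC on the log2 scale, in either direction.

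With the library labelled siB3GNT3 replicate 3 set apart, the genes lower mainly with siB3GNT3 were the largest group at 67. With all libraries, and so with that library at siNC level included, 20 of them were called. EEF1A1 and ITGB1 were abundant members. EEF1A1, the elongation factor that brings aminoacyl-tRNA to the ribosome (chromosome 6, 73515750 to 73523797, minus strand), had 1294, 1324 and 1248 FPKM with siB4GALT5, against 192 and 189 FPKM in siB3GNT3 replicates 1 and 2. The library labelled siB3GNT3 replicate 3 had 1099 FPKM, beside 1088, 1109 and 1128 FPKM with siNC. The difference was 2.75 (SE 0.04, adjusted p = 1.33e-09) with that library set apart and 1.91 (SE 0.56, adjusted p = 0.0469) with all libraries. The all-library call ended when any other single library was left out (EEF1A1 adjusted p = 0.0769 to 0.128). EEF1A1 has many near-identical pseudogene copies, so its level is uncertain.

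ITGB1, the integrin beta 1 chain, had 455, 443 and 409 FPKM with siB4GALT5, against 124, 115 and 424 FPKM with siB3GNT3 and 441, 432 and 442 FPKM with siNC. The library labelled siB3GNT3 replicate 3 again lay at siNC, and the difference was 1.86 (adjusted p = 1.35e-07) without it and 1.25 (adjusted p = 0.0657) with it.

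CTDSP1, a phosphatase of RNA polymerase II, had 22.8, 23.3 and 23.3 FPKM with siB4GALT5, against 4.8, 5.28 and 20.1 FPKM with siB3GNT3 (log2 difference 2, adjusted p = 1.19e-07). RDH11, a retinol dehydrogenase, differed by 1.97, RGS2, which turns off G proteins, by 1.92, the zinc importer SLC39A1 by 1.82 and TGM2, transglutaminase 2, by 1.75. The small GTPases RALB and RAC2 differed by 1.6 and 1.2 and the retinoblastoma gene RB1 by 1.1. RALB had 64.8, 62.2 and 58.1 FPKM with siB4GALT5, against 20.0, 19.3 and 82.9 FPKM with siB3GNT3 and 81.2, 84.3 and 82.9 FPKM with siNC. It was below siNC in all 3 siB4GALT5 libraries and farther below it in siB3GNT3 replicates 1 and 2. The calls of RDH11, RGS2, SLC39A1, TGM2, RALB and RAC2 ended with all libraries (adjusted p = 0.0611 to 0.189).

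Few genes were higher mainly with siB3GNT3. RNF157, a ubiquitin ligase, had 2.06, 1.89 and 2.21 FPKM with siB4GALT5, against 5.66 and 5.7 FPKM in siB3GNT3 replicates 1 and 2 (-1.13, adjusted p = 9.76e-06). SLC16A4, of the monocarboxylate transporter family, had 20.9, 22.8 and 18.8 FPKM with siB4GALT5, against 46.8 and 45.5 FPKM in those siB3GNT3 replicates (-1.12, adjusted p = 1.44e-05). FAM107B differed by -1.02 and ACAD10, of the acyl-CoA dehydrogenase family, by -1.05. For FAM102A and DUS1L (-1.15 and -1.02) siB4GALT5 replicate 3 lay between its own group and siB3GNT3: FAM102A had 9.03, 9.94 and 15.6 FPKM with siB4GALT5, against 25.6 and 26.8 FPKM in siB3GNT3 replicates 1 and 2. In the library labelled siB3GNT3 replicate 3 all 6 genes were within the siB4GALT5 and siNC levels, from 1.99 FPKM for RNF157 to 22.3 FPKM for SLC16A4. The calls of RNF157, SLC16A4, FAM107B, FAM102A and DUS1L ended with all libraries (adjusted p = 0.056 to 0.154).

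IGFBP4, AQP1 and FURIN led the opposite-side group. IGFBP4, which binds insulin-like growth factors (chromosome 17, 40443461 to 40457731, plus strand), had 48.3, 42.2 and 56.2 FPKM with siB4GALT5, against 5.67 and 7.17 FPKM in siB3GNT3 replicates 1 and 2. It had 22 FPKM in the library labelled siB3GNT3 replicate 3, beside 20.9, 20.0 and 21.6 FPKM with siNC. The difference was 2.75 (SE 0.12, adjusted p = 1.04e-06) against each other, 1.18 for siB4GALT5 against siNC and -1.56 for siB3GNT3 against siNC. AQP1, a water channel, had 4.94, 5.87 and 5.19 FPKM with siB4GALT5, against 0.33 and 0.265 FPKM in siB3GNT3 replicates 1 and 2 and 2.59, 2.81 and 2.03 FPKM with siNC (2.29, adjusted p = 1.96e-06). FURIN, the protease that matures many precursors, differed by 1.96, HBEGF, a ligand of the EGF receptor, by 1.32 and DKK1, an inhibitor of Wnt signalling, by 1.2. Each of these was above siNC with siB4GALT5 and below it with siB3GNT3.

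The reverse arrangement, low with siB4GALT5 and high with siB3GNT3, also occurred. CA9, a carbonic anhydrase induced by low oxygen, had 2.22, 2.13 and 1.75 FPKM with siB4GALT5, against 8.56 and 8.7 FPKM in siB3GNT3 replicates 1 and 2 and 4.27, 3.84 and 6.4 FPKM with siNC (-1.67, adjusted p = 6.96e-05). The eosinophil chemokine CCL24 had 14.7, 14.8 and 16 FPKM with siB4GALT5, against 43.1 and 38.7 FPKM in siB3GNT3 replicates 1 and 2 and 21.3, 22 and 25.1 FPKM with siNC (-1.37, adjusted p = 5.18e-06). TCTN2, of the ciliary transition zone, and CTXN1 differed by -1.67 each.

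**Figure D3:**
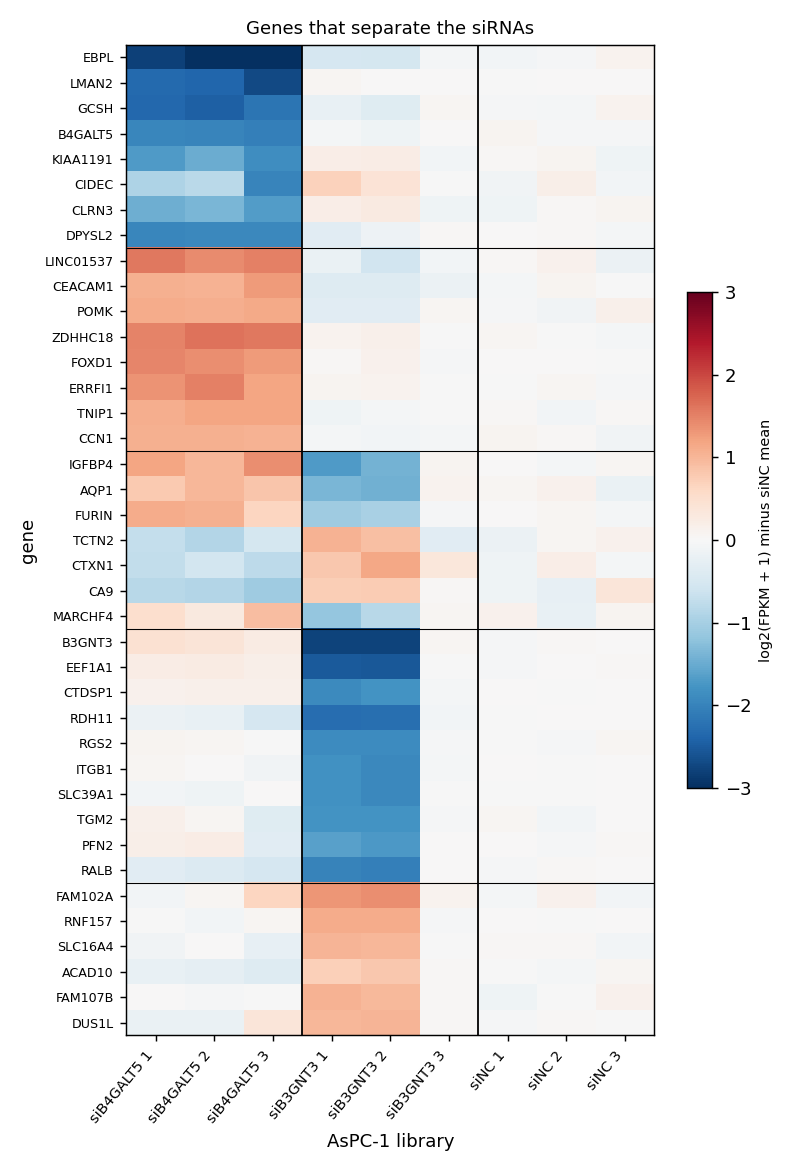
Log2(FPKM + 1) minus the siNC mean (colour, from blue for lower to red for higher) for the leading genes of each group (rows) in the 9 AsPC-1 libraries (columns, siB4GALT5, siB3GNT3, siNC). From top to bottom, 8 genes are lower and 8 higher on the siB4GALT5 side, 7 lie on opposite sides of siNC, and 10 are lower and 6 higher on the siB3GNT3 side; the column of the library labelled siB3GNT3 replicate 3 is near white in most rows.

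Capan-1 offers siB3GNT3 libraries that share no control with AsPC-1. B3GNT3 had 1.32, 1.67 and 1.84 FPKM with siB3GNT3 there, against 13.3, 13.2 and 13.7 FPKM with siNC. Of the 67 genes on the lower side of siB3GNT3 in AsPC-1, 65 were tested in Capan-1, where 22 fell and 0 rose. Of all genes tested there 14.2% fell (1634 of 11493) and 18.7% rose (2152). That background holds low genes, whereas the 67 were chosen with a mean of at least 5 FPKM. In a Capan-1 fit of genes at 5 FPKM or more in at least 3 libraries, 1360 of 7554 fell and 1472 rose. Of 41 tested genes lowered mainly with siB4GALT5 in AsPC-1, 7 fell and 6 rose. The 22 include B3GNT3, the target of the siRNA. Those that fell at least 2-fold were 6, B3GNT3 and 5 others. The share of all genes with such a fall was not counted. SLC39A1 had 28.4, 28.5 and 30.2 FPKM with siB3GNT3 in Capan-1, against 121, 117 and 122 FPKM with siNC (-2.01, adjusted p = 4.03e-06), close to the fall in AsPC-1, where it had 18.6 and 17.1 FPKM in siB3GNT3 replicates 1 and 2, against 68.2, 67.8 and 69.3 FPKM with siNC. LAPTM4A, a lysosomal membrane protein (-1.34), RTN4, the reticulon Nogo (-1.34), UBL4A, which helps insert tail-anchored proteins (-1.25), and the nucleotide reductase subunit RRM2 also fell.

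The difference of responses, AsPC-1 replicates 1 and 2 minus Capan-1, is given as a description, because the 67 genes were chosen for their low level in the same AsPC-1 libraries and a more negative AsPC-1 response is built into that choice. It was called for 53 of the 67 and for 32.8% of 12236 genes, and nothing is read from that count. ITGB1 had 791, 805 and 565 FPKM with siB3GNT3 in Capan-1, against 724, 728 and 732 FPKM with siNC, and its difference of responses was -1.84. For EEF1A1, which had 1317, 1238 and 1013 FPKM with siB3GNT3 in Capan-1, against 1616, 1551 and 1613 FPKM with siNC, it was -2.1. Capan-1 siB3GNT3 replicate 3 differed from replicates 1 and 2 in several of these genes: RALB had 38, 38.4 and 20.0 FPKM with siB3GNT3 there, against 37.2, 36.5 and 39.5 FPKM with siNC. IGFBP4 had 265, 266 and 89.5 FPKM with siB3GNT3, against 229, 238 and 247 FPKM with siNC. Over all genes Capan-1 siB3GNT3 replicate 3 was 0.314 and 0.272 from replicates 1 and 2, which were 0.177 apart, and 0.338 to 0.346 from siNC. Without it 30 of the 65 fell and 8 rose in Capan-1, beside 23.9% of all genes that fell and 3005 of 11338 that rose. In the same fit 17 of 41 tested genes lowered mainly with siB4GALT5 in AsPC-1 also fell, and 6 rose. A frequent fall was thus not particular to the genes of the siB3GNT3 side. The Capan-1 calls, 2152 higher and 1634 lower with siB3GNT3, became 1781 higher and 2079 lower with median-ratio scaling.

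**Figure D4:**
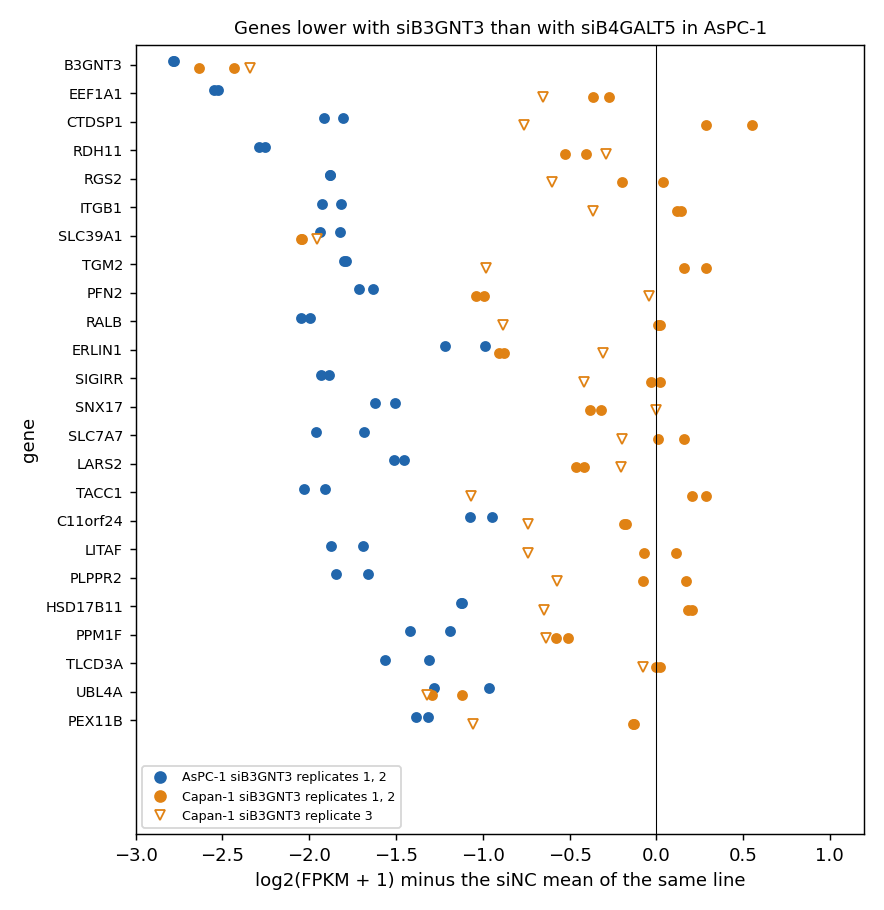
Log2(FPKM + 1) minus the siNC mean of the same line (x axis) for the first 24 genes, by size, that were lower on the siB3GNT3 side in AsPC-1 and tested in Capan-1 (y axis). Blue points are AsPC-1 siB3GNT3 replicates 1 and 2, orange points Capan-1 siB3GNT3 replicates 1 and 2 and open triangles Capan-1 siB3GNT3 replicate 3; B3GNT3, SLC39A1 and UBL4A are low in both lines, while ITGB1 and RALB are low in AsPC-1 and have Capan-1 replicates 1 and 2 at siNC.

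Within the enzyme families the targets differed most. Of 7 B4GALT genes tested, B4GALT3 and B4GALT7 were higher with siB4GALT5 by 0.29 and 0.24, and B4GALT5, the target, was lower (42.9% called beside 35.2% of all genes). B4GALT1, the main galactosyltransferase of N-glycans, had 74.5, 73.9 and 73.7 FPKM with siB4GALT5, against 72.3 and 71.6 FPKM in siB3GNT3 replicates 1 and 2, where siNC had 18.9, 20.2 and 21.1 FPKM. The knockdowns were 0.04 apart (SE 0.06, adjusted p = 0.607), both far above siNC. The library labelled siB3GNT3 replicate 3 had 19.4 FPKM, and with all libraries the value was 0.65 (SE 0.41, adjusted p = 0.303). B4GALT2, B4GALT4 and B4GALT6 had differences of -0.11, 0.03 and 0.05 that did not pass. Of 5 B3GNT genes tested 80.0% were called, beside 35.2% of all genes, with B3GNT3 among them by the choice of libraries. B3GNT2, which builds polylactosamine, and B3GNT5, which starts lacto-series glycolipids, were higher with siB4GALT5 by 0.66 and 0.48, and B3GNTL1 was lower (-0.34). B3GNT9 differed by 0.23 (adjusted p = 0.179). Calls of B3GNT2, B3GNTL1 and B4GALT7 ended without siB3GNT3 replicate 2 (adjusted p = 0.0631, 0.13 and 0.166). The calls of B4GALT7, B3GNT2, B3GNT5 and B3GNTL1 ended with all libraries (adjusted p = 0.0541 to 0.206).

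Further enzymes of both pathways were compared. Of 12 O-glycan synthesis genes tested 6 were higher with siB4GALT5 and 0 lower, beside 17.8% and 17.4% of all genes, with a median of 0.14 that became -0.02 in a fit of the knockdown groups only and without siNC replicate 1 or 3. B3GNT3 is 1 of the 6, by the choice of libraries; the others are ST6GALNAC4 and ST3GAL1, which cap O-glycans with sialic acid (1.24 and 0.74), and GALNT2, GALNT6 and GALNT1, which start them (0.61, 0.55 and 0.31). ST6GALNAC4 had 36.5, 42 and 35.2 FPKM with siB4GALT5, against 14.6 and 16.4 FPKM in siB3GNT3 replicates 1 and 2 and 37.3, 43 and 35.8 FPKM with siNC, so it was low with siB3GNT3. ST3GAL1 was instead high with siB4GALT5, with 23.1, 23.6 and 26.7 FPKM, against 13.7, 14.8 and 14.4 FPKM with siB3GNT3 and 15, 15 and 14.1 FPKM with siNC. Of 21 glycosphingolipid genes 4 were higher, a share near the 17.8% of all genes, and 6 lower with siB4GALT5, beside 17.4% (median -0.15). B4GALNT1, which makes the gangliosides GM2 and GD2, had 14.2, 13.7 and 12.5 FPKM with siB4GALT5, against 4.81 and 5.12 FPKM in siB3GNT3 replicates 1 and 2 and 15.3, 16.1 and 14.8 FPKM with siNC (1.28). GAL3ST1, which makes sulfatide, was lower with siB4GALT5 at 5.52, 5.45 and 4.81 FPKM, against 8.61, 9.46 and 8.74 FPKM with siB3GNT3 (-0.68). The calls of ST6GALNAC4, GALNT2, GALNT6, GALNT1 and B4GALNT1 ended with all libraries (adjusted p = 0.0591 to 0.366).

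Interferon-stimulated genes were above siNC with both siRNAs, and part of them more so with siB4GALT5. Of 42 tested, 40 were above siNC with siB4GALT5 and 38 with siB3GNT3 replicates 1 and 2, beside 35.2% and 32.5% of all genes, and none was below. Against each other 21 were higher with siB4GALT5 and 0 lower, with a median of 0.36 (0.18 to 0.44 over the alternatives), beside 17.8% of all genes that were higher. With all libraries 6 were called higher and 0 lower and the median was 0.77. The library added back lies at siNC, so it lowers the siB3GNT3 mean of genes that both siRNAs raise. The larger median is built into adding it and is not read as a larger excess with siB4GALT5. IFIT2, which blocks translation of viral RNA, had 173, 166 and 120 FPKM with siB4GALT5, against 83.7, 85.7 and 17.9 FPKM with siB3GNT3 and 17.1, 16.2 and 17.2 FPKM with siNC. The library labelled siB3GNT3 replicate 3 was at siNC level, the other siB3GNT3 libraries lay between siNC and siB4GALT5, and the difference was 0.82 (adjusted p = 0.0014). IFI44 had 54.6, 61 and 52.3 FPKM with siB4GALT5, against 35.7, 33.4 and 13.8 FPKM with siB3GNT3 (0.68), and ZC3HAV1, the antiviral protein ZAP, 75.5, 71.7 and 64 FPKM with siB4GALT5, against 46.5, 45.9 and 24.2 FPKM with siB3GNT3 (0.59). OAS2 differed by 0.85, a call that ended without siB3GNT3 replicate 1 (adjusted p = 0.0583). Of 17 genes of interferons and RNA sensing 5 were higher and 6 lower with siB4GALT5, 64.7% called beside 35.2% of all genes. The sensor IFIH1 by 0.48 and the editing enzyme ADAR by 0.57 were higher, and the receptor chain IFNAR1 was lower at -0.53. ADAR had 86.8, 94.1 and 98.9 FPKM with siB4GALT5, against 61.8, 63.1 and 58 FPKM with siB3GNT3 and 61.9, 57.1 and 57.2 FPKM with siNC, so only the siB4GALT5 libraries were high. The calls of IFIT2, IFIH1 and IFNAR1 ended with all libraries (adjusted p = 0.063 to 0.106).

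Promoters of 2 of these genes are shown for an element found in part of the list. The core of the interferon-stimulated response element, GAAA and after any 2 bases GAAA again, was searched on both strands (TTTC, 2 bases, TTTC on the other) in the 250 bases before the start of each gene (RefSeq, GRCh38.p14). It was in 21 of the 34 interferon-stimulated genes with a promoter in that table (61.8%), in 3.31% of 8731 tested genes and in 3.02% of 35116 windows. For IFI44 (chr1:78649539-78649788, plus strand) and IFIT3 (chr10:89327747-89327996, plus strand) the windows read as follows, with matches in capitals. The match in IFI44 begins 18 bases before the start, those in IFIT3 156 and 122 bases before it. IFIT3 differed by 0.66, with 105, 117 and 87 FPKM with siB4GALT5, against 63.7 and 64.6 FPKM in siB3GNT3 replicates 1 and 2. The call of IFIT3 ended with all libraries (adjusted p = 0.0698). A match is a description of the letters, not evidence of binding.
IFI44: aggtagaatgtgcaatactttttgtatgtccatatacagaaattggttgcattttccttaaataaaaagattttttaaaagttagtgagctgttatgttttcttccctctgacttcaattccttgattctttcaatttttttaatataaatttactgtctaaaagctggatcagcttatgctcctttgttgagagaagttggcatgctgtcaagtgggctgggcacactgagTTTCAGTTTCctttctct
IFIT3: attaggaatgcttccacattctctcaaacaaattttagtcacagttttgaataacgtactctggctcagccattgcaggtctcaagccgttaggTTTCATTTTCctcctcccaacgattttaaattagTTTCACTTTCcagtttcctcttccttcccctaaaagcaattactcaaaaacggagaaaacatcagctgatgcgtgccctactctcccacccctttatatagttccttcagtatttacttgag

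Most genes of the amino acid stress response were above siNC with both siRNAs. They are targets of the transcription factor ATF4, which is made when the kinases of eIF2 are active. Of 29 tested, 25 were above siNC with siB4GALT5 and 28 with siB3GNT3, beside 35.2% and 32.5% of all genes, and 0 below with either. Against each other 5 were higher, near the 17.8% of all genes, and 10 lower with siB4GALT5, beside 17.4%, with a median of -0.06 that was 0.04 without siB4GALT5 replicate 3. GDF15, a secreted stress signal, had 7.8, 8.71 and 10.3 FPKM with siB4GALT5, against 22.5, 25.4 and 2.25 FPKM with siB3GNT3 and 2.08, 2.27 and 1.83 FPKM with siNC (-1.33, adjusted p = 3.37e-05). PSAT1, of serine synthesis, had 54.9, 54.9 and 49.8 FPKM with siB4GALT5, against 91.4, 85 and 47.8 FPKM with siB3GNT3 and 49.4, 49.1 and 48.9 FPKM with siNC (-0.72). GARS1, the glycyl-tRNA synthetase, and CEBPG, a partner of ATF4, differed by -0.57 and -0.73. ASNS and PCK2 were lower as well (-0.48 and -0.52). WARS1, SLC6A9 and SLC7A1 were among the 5 that were higher with siB4GALT5 (0.5, 0.47 and 0.36). With all libraries 4 were called higher and 0 lower with siB4GALT5 and the median was 0.24. The library labelled siB3GNT3 replicate 3 had GDF15 and PSAT1 at siNC level, and GDF15 then had -0.35 (adjusted p = 0.745). The calls of PSAT1, GARS1, CEBPG, ASNS and PCK2 ended with all libraries (adjusted p = 0.177 to 0.954).

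The element shared by part of that list was searched in the same windows. TGATGNAA, the core of the C/EBP-ATF response element (TTNCATCA on the other strand), was in 6 of 25 genes of the list with a promoter (24%), in 2.16% of 8731 tested genes and in 3.14% of all windows. It is shown in capitals for GARS1 (chr7:30594628-30594877, plus strand), 33 bases before the start, and CEBPG (chr19:33373863-33374112, plus strand), 42 bases before it.
GARS1: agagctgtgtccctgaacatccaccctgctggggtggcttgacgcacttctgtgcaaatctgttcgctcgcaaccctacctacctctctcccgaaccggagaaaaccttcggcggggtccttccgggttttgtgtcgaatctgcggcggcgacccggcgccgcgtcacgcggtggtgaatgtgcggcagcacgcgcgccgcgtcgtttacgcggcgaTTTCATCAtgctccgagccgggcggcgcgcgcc
CEBPG: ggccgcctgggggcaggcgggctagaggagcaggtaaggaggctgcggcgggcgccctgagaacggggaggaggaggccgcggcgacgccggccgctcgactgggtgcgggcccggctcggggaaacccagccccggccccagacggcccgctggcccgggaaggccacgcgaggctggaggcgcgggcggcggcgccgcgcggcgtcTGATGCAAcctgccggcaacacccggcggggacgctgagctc

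Inflammatory genes differed in both directions. The neutrophil chemokines CXCL1, CXCL2 and CXCL3 were lower with siB4GALT5 by log2 differences of -0.78, -0.6 and -0.9, and CCL20 by -0.55. CXCL1 had 68.8, 82.7 and 72.3 FPKM with siB4GALT5, against 131, 126 and 82 FPKM with siB3GNT3 and 78.8, 80.8 and 81.1 FPKM with siNC, so only siB3GNT3 replicates 1 and 2 were high. CCL5, which draws T cells, was higher with siB4GALT5, at 17.3, 15.2 and 14.9 FPKM, against 11.8 and 10.7 FPKM in siB3GNT3 replicates 1 and 2 (0.45). Altogether 2 of 12 chemokines and cytokines were higher and 4 lower, 50.0% beside 35.2% of all genes. Of 16 NF-kB targets 5 were higher, TNIP1 the farthest, and 3 lower, BIRC3, an inhibitor of apoptosis, the farthest (-0.62), again 50.0%. The calls of CXCL2, CXCL3, CCL20, CCL5 and BIRC3 ended with all libraries (adjusted p = 0.126 to 0.985).

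Of MHC class I mRNAs, the readout closest to the question of the series, all but 1 missed the threshold. Of 6 chains tested 1 was lower and 0 higher with siB4GALT5 (16.7% called beside 35.2% of all genes), with a median of 0.01. HLA-B had 87.5, 107 and 77.5 FPKM with siB4GALT5, against 90.7, 90.4 and 61 FPKM with siB3GNT3 and 57.7, 57.7 and 67 FPKM with siNC (-0.01, SE 0.12). B2M, the shared light chain, differed by 0.18 (SE 0.09, adjusted p = 0.136), HLA-E by 0.17 (adjusted p = 0.0702) and HLA-C by -0.08 (adjusted p = 0.404). HLA-F was lower with siB4GALT5, at 1.33, 1.39 and 1.62 FPKM, against 2.81, 2.71 and 2.03 FPKM with siB3GNT3 and 1.7, 1.87 and 2.42 FPKM with siNC (-0.62, adjusted p = 0.00253). HLA genes share sequence, so the division of reads between them is uncertain.

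Of 18 genes of MHC class I peptide processing 4 were lower with siB4GALT5 and 0 higher, a share of 22.2% against 35.2% of all genes. They were the chaperone CALR (-0.46), the trimming peptidase ERAP1 (-0.43), the immunoproteasome subunit PSMB10 (-0.33) and the proteasome activator PSME1 (-0.25). CALR had 215, 208 and 257 FPKM with siB4GALT5, against 310, 312 and 307 FPKM with siB3GNT3 and 310, 309 and 318 FPKM with siNC. PSME1 lost its call without siB4GALT5 replicate 1, siB3GNT3 replicate 1 or siB3GNT3 replicate 2 (adjusted p = 0.0564, 0.136 and 0.052), and PSMB10 without siB3GNT3 replicate 2 (0.12). Among 13 T and NK cell ligands tested, 2 were higher and 3 lower (38.5%). HHLA2, a B7-family ligand, had 8.96, 8.73 and 8.47 FPKM with siB4GALT5, against 20.4, 18.9 and 18.8 FPKM with siB3GNT3 and 17.7, 19.5 and 20.6 FPKM with siNC (-1.08). MICB, a stress ligand of NKG2D, had 8.63, 8.1 and 7.96 FPKM with siB4GALT5, against 3.81, 3.23 and 9.4 FPKM with siB3GNT3 (1.03). The calls of ERAP1, PSME1 and MICB ended with all libraries (adjusted p = 0.157 to 0.701).

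Most lipid synthesis genes were below siNC with both siRNAs. Of 24 cholesterol synthesis genes 17 were below siNC with either siRNA, beside 23.0% and 20.4% of all genes; against each other 7 were higher and 3 lower with siB4GALT5 (41.7% beside 35.2% of all genes, median 0.11, -0.08 with all libraries). MVD, which decarboxylates mevalonate diphosphate, had 8.49, 9.28 and 7.28 FPKM with siB4GALT5, against 5.14, 5.8 and 9.81 FPKM with siB3GNT3 and 9, 9.51 and 9.42 FPKM with siNC (0.53, adjusted p = 0.00266). It was lowest in siB3GNT3 replicates 1 and 2. The call of MVD ended with all libraries (adjusted p = 0.337). PMVK was lower with siB4GALT5 (-0.92), though its siB4GALT5 libraries ranged from 17.5 to 29.3 FPKM. Fatty acid synthesis had 3 of 19 higher and 7 lower with siB4GALT5 (52.6%, median -0.17). ELOVL6, an elongase, had 3.73, 3.85 and 3.08 FPKM with siB4GALT5, against 7.86, 7.16 and 13 FPKM with siB3GNT3 and 12.3, 11.7 and 12.4 FPKM with siNC (-0.9).

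Many proliferation genes were below siNC with both siRNAs: 23 of 33 DNA replication genes with either, and 22 of 31 genes of G2 and mitosis with siB4GALT5 and 15 with siB3GNT3, beside 23.0% and 20.4% of all genes. Against each other 7 of the replication genes were higher with siB4GALT5 and 2 lower. RRM2 had 99, 90.8 and 109 FPKM with siB4GALT5, against 42.3, 39.5 and 119 FPKM with siB3GNT3 and 116, 115 and 117 FPKM with siNC (1.26). The origin gene ORC1 and the helicase subunit MCM2 were also higher (0.58 and 0.53). Of the genes of G2 and mitosis 2 were higher and 7 lower with siB4GALT5. FOXM1, their transcription factor, had 22.5, 22.2 and 21.6 FPKM with siB4GALT5, against 31.8, 32 and 40.5 FPKM with siB3GNT3 and 39.3, 42 and 40.4 FPKM with siNC (-0.51), while PLK1 was higher (0.35). Both shares, 27.3% and 29%, were below the 35.2% of all genes called. The calls of RRM2, ORC1, MCM2 and PLK1 ended with all libraries (adjusted p = 0.14 to 0.823). The mitochondrial genome gave 18.1% to 19.5% of summed FPKM with siB4GALT5, 20.1% and 19.7% in siB3GNT3 replicates 1 and 2, 24.3% in the library labelled siB3GNT3 replicate 3 and 23.8% to 24.8% with siNC. Of its 13 mRNAs 3 were lower with siB4GALT5 and 0 higher (23.1% called beside 35.2% of all genes), ND5 farthest (-0.4). Their part in the other results was not tested.

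Of 9 mesenchymal genes 5 were higher with siB4GALT5 and 2 lower, 77.8% called beside 35.2% of all genes, with a median of 0.67 (0.7 with all libraries). ITGA5 had 92.3, 95.8 and 84.5 FPKM with siB4GALT5, against 53.9, 54.3 and 57 FPKM with siB3GNT3 and 62.8, 58 and 58.1 FPKM with siNC (0.74), and TGFBI 141, 137 and 159 FPKM with siB4GALT5, against 82.3, 90.0 and 96.3 FPKM with siB3GNT3 and 103, 94.4 and 102 FPKM with siNC (0.75). SNAI2 and MMP14 were higher by 0.67 each, while VIM and TNC were lower (-0.4 and -0.26). With that library set apart the median lay between 0.05 and 0.69 over the alternatives. Of 9 genes of the classical pancreatic cancer subtype 4 were lower with siB4GALT5 and 0 higher (44.4%, median -0.28, 0.02 without the filter on low values): HNF4A (-0.64), TSPAN8 (-0.61), LGALS4 (-0.71) and AGR2 (-0.37). HNF4A, a master regulator of gut and liver identity, had 4.87, 5.05 and 6.08 FPKM with siB4GALT5, against 8.83, 8.78 and 9.18 FPKM with siB3GNT3 and 9.59, 9.28 and 9.62 FPKM with siNC. LGALS4 lost its call without siB4GALT5 replicate 1 or 2 or without siB3GNT3 replicate 1 (adjusted p = 0.0535, 0.0561 and 0.148). Basal-like genes had 1 of 6 higher, KRT17 (0.66), and 1 lower, KRT15 (-0.8), a share of 33.3% near that of all genes. The calls of AGR2, KRT17 and KRT15 ended with all libraries (adjusted p = 0.0976 to 0.555). TNC then had 0.03 (adjusted p = 0.94).

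Another list holds targets of YAP, the effector of the Hippo pathway, and also YAP1 itself, WWTR1, TEAD1 and TEAD4. Of its 15 genes tested 6 were higher with siB4GALT5 and 2 lower (53.3% beside 35.2% of all genes, median 0.11). CCN1, a secreted matrix protein, had 30.2, 30.4 and 30.1 FPKM with siB4GALT5, against 13.3, 13.1 and 13.3 FPKM with siB3GNT3 and 14.7, 14.3 and 13 FPKM with siNC (1.13, adjusted p = 3.82e-06). CCN2, TEAD4, AMOTL2 and LATS2 were higher too (0.84, 0.73, 0.69 and 0.66), and the receptor kinase AXL was lower, at 29.8, 26.3 and 25.8 FPKM, against 49.9, 52.2 and 40.0 FPKM with siB3GNT3 (-0.88). The other lower gene was YAP1 itself (-0.21, adjusted p = 0.012). In MAPK output and EGFR ligands 7 of 24 were higher and 5 lower (50.0%), with a median near 0 (-0.0036) that was above 0 with median-ratio scaling. HBEGF, SPRY2, PHLDA1, DUSP1 and DUSP4 were higher (1.32, 0.8, 0.77, 0.65 and 0.56), and the ligand AREG and the receptors ERBB3 and ERBB2 were lower (-0.92, -0.81 and -0.56). AREG was above siNC with both, with 36.9, 42.2 and 26.6 FPKM with siB4GALT5, against 69.8, 63.6 and 10.4 FPKM with siB3GNT3 and 10.5, 9.78 and 9.18 FPKM with siNC. The calls of YAP1, AREG, ERBB3 and ERBB2 ended with all libraries (adjusted p = 0.0938 to 0.951).

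Among p53 targets 4 of 15 were higher with siB4GALT5 and 0 lower, 26.7% called beside 35.2% of all genes. The cell cycle inhibitor CDKN1A had 42, 44.4 and 47.3 FPKM with siB4GALT5, against 27.5, 28.5 and 24.4 FPKM with siB3GNT3 and 23.5, 21 and 22 FPKM with siNC (0.65). PRDX1, a peroxidase, had 178, 193 and 143 FPKM with siB4GALT5, against 328, 299 and 662 FPKM with siB3GNT3 and 652, 672 and 693 FPKM with siNC (-0.88). TXNIP, which binds thioredoxin, was higher by 0.87 and GPX4, which protects lipids from peroxidation, lower (-0.66); that list had 4 of 22 in each direction (36.4%), near the share of all genes. Hypoxia and glycolysis genes had 9 of 27 higher and 6 lower (55.6%). VEGFA, the vascular growth factor, had 27.8, 28.6 and 25.4 FPKM with siB4GALT5, against 39.7, 41.8 and 10.1 FPKM with siB3GNT3 and 9.56, 11 and 10.5 FPKM with siNC. It was above siNC with both, lower with siB4GALT5 with the library labelled siB3GNT3 replicate 3 set apart (-0.56, adjusted p = 0.000535) and at 0.07 with all libraries (adjusted p = 0.927). In a fit of all 5 groups of both lines the VEGFA call with that library set apart ended (adjusted p = 0.105), as did that of PHLDA1 (adjusted p = 0.0658).

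Of 27 genes of cargo and traffic between endoplasmic reticulum and Golgi 6 were higher and 6 lower (44.4% beside 35.2% of all genes), and of 22 endoplasmic reticulum chaperones and XBP1 targets also 6 and 6 (54.5%). LMAN2 was far outside the rest of the first list, whose other calls lay between -0.46 (MCFD2) and 0.44 (KDELR2). Lysosome genes had 5 of 29 higher, with CTSB by 0.47 and the proton pump subunit ATP6V1B2 by 0.58, and 3 lower (27.6%). Cytosolic ribosomal protein genes had 3 of 41 in each direction, 14.6% in all, and the farthest was RPL18 with 612, 642 and 639 FPKM with siB4GALT5, against 372, 345 and 649 FPKM with siB3GNT3 and 617, 584 and 640 FPKM with siNC (0.82). Histones had 3 of 12 higher and 4 lower (58.3%), epithelial genes 2 of 9 higher and 1 lower (33.3%) and ductal markers 3 of 7 higher (42.9%), among them KRT18 and KRT19 (0.36 and 0.44). The calls of MCFD2, KDELR2, RPL18 and KRT19 ended with all libraries (adjusted p = 0.0978 to 0.678). Neither of the 2 mucins tested passed the threshold. All lists were written with earlier results of these data known, and their counts describe them without a test of the list.

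**Figure D5:**
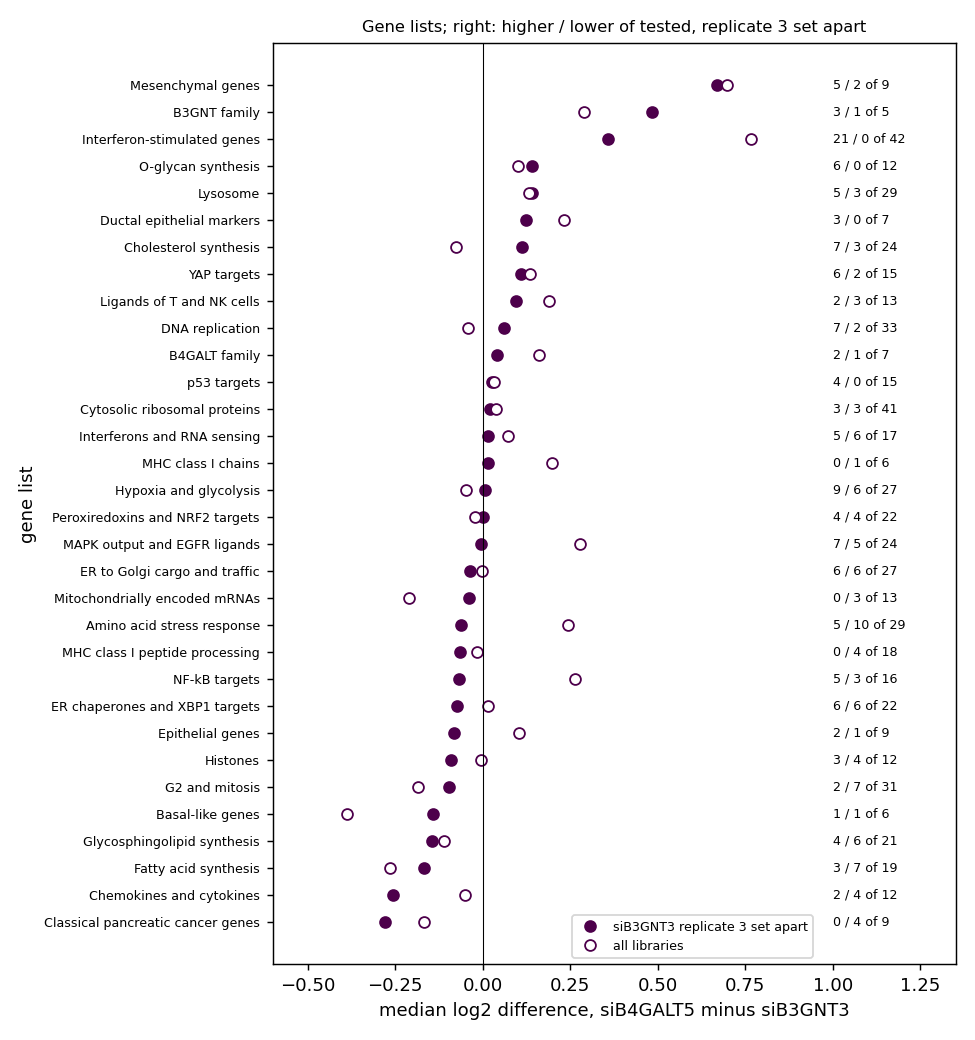
Median log2 difference, siB4GALT5 minus siB3GNT3 (x axis), of each gene list with at least 5 genes tested (y axis); filled points have the library labelled siB3GNT3 replicate 3 set apart, open points have all libraries. The numbers at the right give how many were higher and lower of those tested, for example 21 and 0 of 42 interferon-stimulated genes, whose median was 0.36 with that library set apart and 0.77 with all. That library lies at siNC, so the open point is farther right for a list that both siRNAs raise.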

How the data were processed

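RNA was sequenced from 15 libraries in 5 groups of 3. The authors deposited 1 table of FPKM values per gene, made with Bowtie2, RSEM 1.3.1 and GRCh38 per the submitters' processing notes. No source used here names the gene annotation. FPKM hold no counts, so a count model and counting intervals were not used, and the number of libraries limits the precision. DESeq2 1.4.5 is named in those notes and was not used here.

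Differences were fitted with limma 3.58.1 (trend, R 4.3.3) on log2(FPKM + 1), which understates changes of low genes, for genes at 1 FPKM or more in at least 3 libraries of the fit. Benjamini-Hochberg adjusted p under 0.05 over all genes tested was a call. The direct comparison used 9 AsPC-1 libraries, siNC included, or 8 with the library labelled siB3GNT3 replicate 3 set apart; Capan-1 used 6, and the difference between lines 14. SD is not given for siB3GNT3 replicates 1 and 2. The scripts were tested on simulated data.

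Members and gene lists were chosen with earlier results of these data known. Genes were named by a rule: both families, the MHC class I chains, called genes of largest difference whose groups do not overlap, the leading genes of each class and up to 3 genes of smallest p per list. Other genes named (among them AHCY, AREG, CCL24, CD46, DKK1, HMMR, IFIT3, KCNN4, MVD, RAC2, RALB, RB1, SLC39A1 and TGM2, and further list members) were chosen after their values were seen. Some genes that the rule or a list would name are not reported here. Alternatives were the pseudocount, filters, scalings, weights, the libraries fitted, a replicate block and leaving out each library; the line comparison, its version without Capan-1 siB3GNT3 replicate 3 and the 2-fold counts were added after seeing the data. Gene coordinates are from GENCODE 29 (GRCh38).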

Additional observations from a re-analysis of the deposited data

Results flagged for a closer look

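The response to siB3GNT3 against siNC differed between AsPC-1 (replicates 1 and 2) and Capan-1 in 4009 of 12236 genes by a limma interaction test. Among them were 9 of the named leading genes of the siB3GNT3 groups, whose values are given here as AsPC-1 minus Capan-1 on the log2 scale. These genes were chosen for a large response in the same AsPC-1 libraries, so the direction is built into the choice and the values are a description. Among genes lower on the siB3GNT3 side in AsPC-1, EEF1A1 had -2.10, CTDSP1 -1.88, RDH11 -1.87 and RGS2 -1.63. Among genes higher there, RNF157 had 1.347, SLC16A4 1.30, FAM102A 0.80, FAM107B 0.72 and ACAD10 0.66. For CTDSP1 Capan-1 siB3GNT3 replicate 3 stood apart, with 7.74 FPKM beside 20.7 and 17.1 FPKM in Capan-1 siB3GNT3 replicates 1 and 2, against 14, 14 and 13.6 FPKM with siNC.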

How the results depend on the processing

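The call count of siB4GALT5 against siB3GNT3 with all libraries (1716) was 6072 with array weights, 534 in a fit of the 2 knockdown groups only and 113 at 2-fold. Leaving out 1 library gave 733 (without siB4GALT5 replicate 1) to 3789 (without the library labelled siB3GNT3 replicate 3), with 786 without siB4GALT5 replicate 2, 1010 without siB3GNT3 replicate 1 and 1142 without siNC replicate 3. With that library set apart (3789) the count was 205 at 2-fold and 2134 (without siB3GNT3 replicate 1) to 4865 (without siB4GALT5 replicate 3) over single libraries, with 2190 without siB3GNT3 replicate 2. In Capan-1 (3786) it was 2069 (without siNC replicate 1), 2083 and 2112 (without siNC replicate 2 and 3) to 5715 (without siB3GNT3 replicate 3). With all libraries VEGFA (0.07) turned to -0.49 with array weights and -0.56 without the library labelled siB3GNT3 replicate 3, and was 0.41 without siB3GNT3 replicate 2. The cause of these shifts was not tested.

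Same-numbered libraries did not deviate together (r of -0.0389 to 0.132, over 0.1 in 1 of 9 pairs). The siB3GNT3 deviations were taken from a mean that included the library labelled siB3GNT3 replicate 3, which lies far from its group. The replicate numbers also differ from those in the library names. Whether libraries were handled in pairs is thus not decided. A replicate block gave 1383 calls with all libraries, 3623 with that library set apart and 3311 in Capan-1. Of the named genes' values under alternatives 4556 stayed on the same side of the threshold, 131 passed it anew and 204 no longer passed. Another 2 changed sign with a call in at least 1 of the fits compared. A change of sign without a call in either fit was counted among the 4556. FPKM give no depth, so the reliability of low values is unknown.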
